A study of Monodelphis domestica with 2 samples.

Results

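The genes described here are grouped around the machinery that docks, primes and fuses synaptic vesicles. They were taken by the start of their symbol (SYT with a digit, SYTL, SNAP with a digit, STX with a digit, STXBP, VAMP, SV2, SYN with a digit, SYP, RIMS, RIMBP, UNC13, CPLX, DOC2, RAB3, RPH3A, BSN, PCLO, ERC with a digit, OTOF and CADPS). The rule found 78 genes among the 11590 genes that carry a symbol in the deposited table of 30800 genes. It also took 7 RAB genes that only share the first letters with RAB3 (RAB30, RAB32, RAB33A, RAB33B, RAB34, RAB35 and RAB37) and 14 SNAREs of other membranes (such as STX17 and VAMP8). Several familiar members of the pathway carry no symbol in the table, among them BSN, PCLO, UNC13A, UNC13B, UNC13C, VAMP1, SYT3, SYT7, SYT10 and SYN3, and are not analysed here.

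Nuclei of opossum (Monodelphis domestica, a marsupial) primary visual cortex, V1, were profiled by droplet-based single-nucleus RNA sequencing (snRNA-seq). The samples were 2 adult males with no treatment, aged 1.5 and 2 years (animal 1 and animal 2), and they formed 1 group. Tissue of both hemispheres was pooled within an animal, nuclei stained with Draq5 were sorted, and the nuclei of each animal went into 2 libraries (1A and 1B, 2A and 2B). The animals were processed in parallel by different experimenters, so animal, age and handling cannot be told apart. The libraries held 55625042 to 69706055 unique molecular identifiers (UMIs), and any pair of libraries shared 0.206% to 0.348% of their barcodes. The authors' labels placed 32764 nuclei in 18 subclasses: the glutamatergic IT_A, IT_B, IT_C, IT_D, L5NP, L5PT, L6CT and L6b, the GABAergic Pvalb, Sst, Vip, Lamp5 and Frem1, and the non-neuronal astrocytes (Astro), oligodendrocytes (OD), oligodendrocyte precursors (OPC), microglia (Micro) and endothelial cells (Endo). For each subclass of each animal the UMIs of its nuclei were added up, and levels are given as CPM of that sum. Endo held only 29 and 36 nuclei (48514 and 57864 UMIs), L6b 56 and 53, and IT_D 58 and 315, so values there rest on few UMIs. GAD1 was at 297 CPM or more and GAD2 at 250.3 CPM or more in each GABAergic sum. The authors used both genes to divide clusters into classes, so these values do not check the class labels. FREM1 was at 59.0 and 76.8 CPM in Lamp5 and at 50.8 and 73.8 CPM in Frem1, so it did not separate those labels. PVALB and SLC17A7 carry no symbol in the table, so the Pvalb label was not checked by its own gene.

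A vesicle fuses when a SNARE on it (synaptobrevin, the VAMP genes) zips up with SNAREs of the plasma membrane (syntaxin and SNAP25). Complexins hold the assembled SNAREs in check, and a calcium sensor of the synaptotagmin family triggers fusion when calcium enters. RIM, RIM-binding protein and ELKS scaffold the active zone, CAPS proteins (CADPS genes) and Munc13 prime vesicles, and RAB3 GTPases tether them. The reads come from nuclei and include introns, so they measure nuclear RNA and not protein or synapses. Subclass labels were drawn by the authors from clusters of the same counts, these genes included, and SNAP25 and SV2B helped them to divide clusters into classes, so values of both genes between those classes are given as a description, although both enter the counts below. Each nucleus was relabelled from the other animal by its neighbors in principal components built without the 78 genes. The same subclass was returned for 96.4% of nuclei. The labels learned from were the authors' own, so this shows only that other genes reproduce them.

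The genes as a whole made up a larger share of RNA in neurons than in glia. Their summed level was 2.20% and 2.15% of UMIs in glutamatergic neurons of animals 1 and 2, 1.83% and 1.82% in GABAergic neurons and 0.654% and 0.675% in non-neuronal cells (means over subclasses). Among neurons IT_D had the highest sum (2.56% and 2.35%) and Vip the lowest (1.30% and 1.33%). Among non-neuronal cells OPC had the highest sum (0.968% and 0.982%) and OD the lowest (0.379% and 0.429%). Of the 78 genes, 30 had their highest level in a glutamatergic subclass, 21 in a GABAergic subclass and 27 in a non-neuronal subclass, and 13 stayed under 20 CPM in every subclass. Of the 27, 10 were highest in Endo, and 6 of these 10 rested on at most 3 UMIs in each animal. The subclass with the highest level was the same in both animals for 47 genes.

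**Figure D1:**
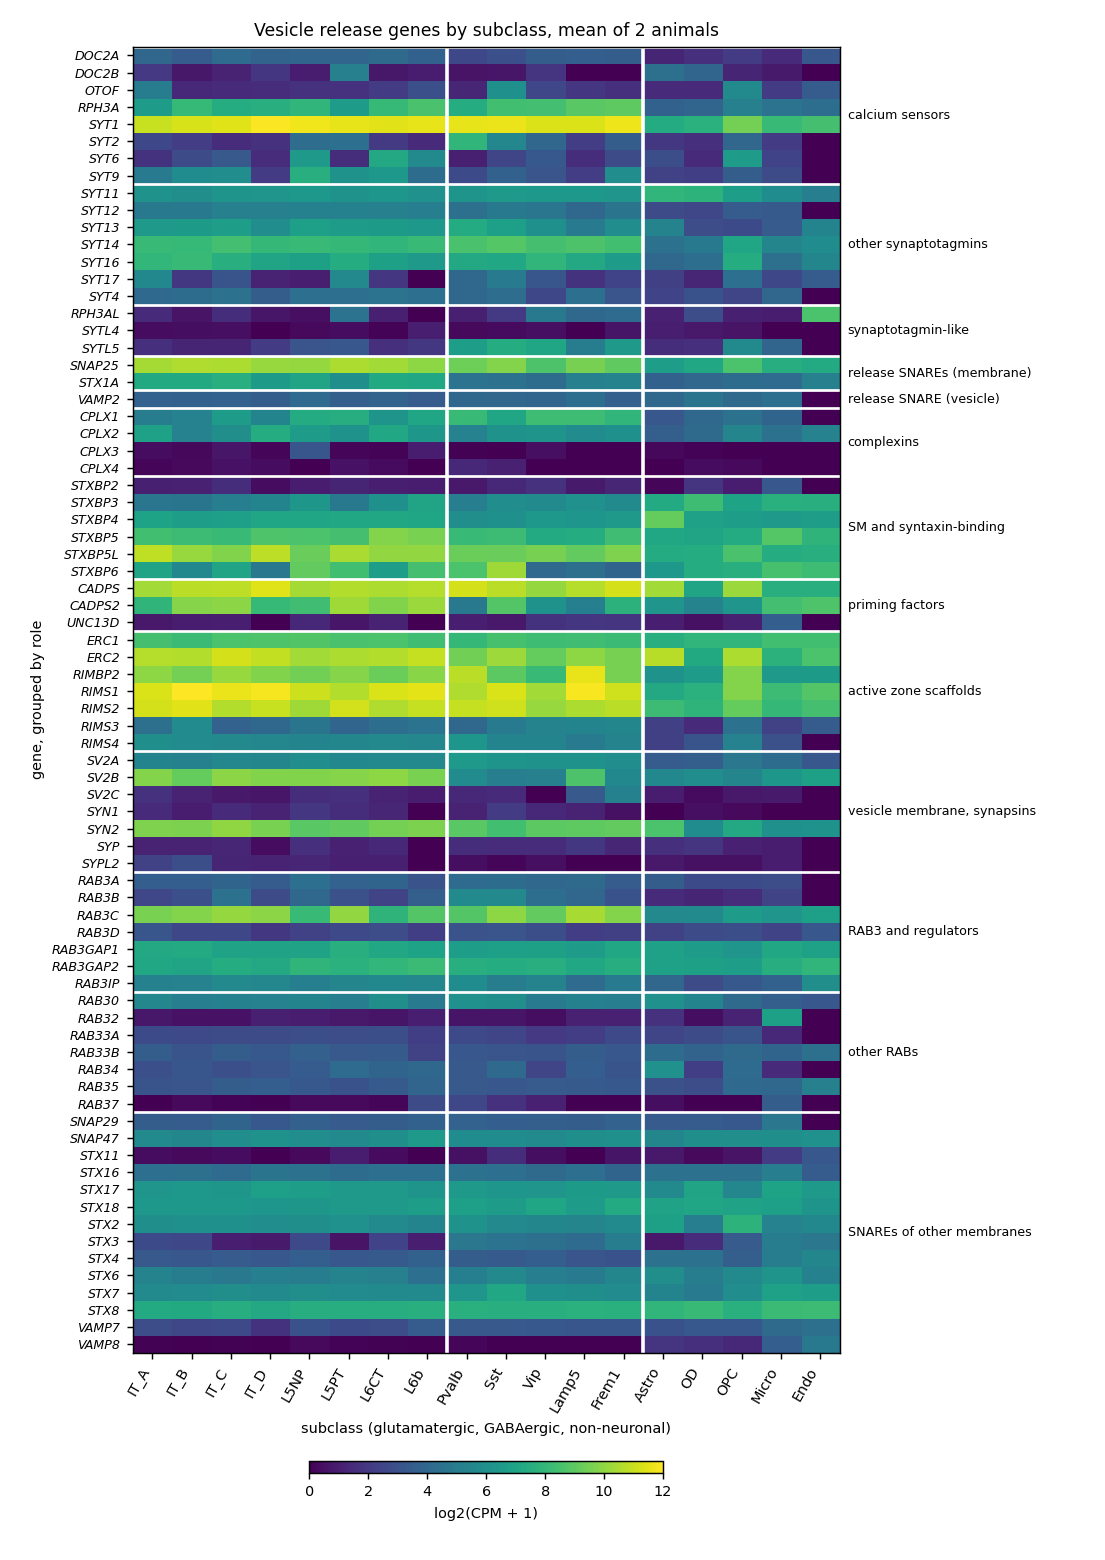
Level of 76 of the 78 genes in 18 subclasses, as log2(CPM + 1) of the mean of 2 animals. Rows are genes grouped by role, columns are subclasses, and white lines separate roles and classes. SYT1, RIMS1 and RIMS2 are bright in every neuronal column, while SYT2, SYT6, OTOF and DOC2B stand out in few.

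The genes ranged from nearly even to strongly selective across neuronal subclasses. Of the 56 that reached 20 CPM in at least 1 neuronal subclass, 11 (19.6%) varied by less than 2-fold between the lowest and the highest of the 13 neuronal subclasses, against 42.0% of all 5939 such genes with a symbol. At the other end 16 (28.6%) varied by 10-fold or more or were at 0 somewhere, against 18.9% of all such genes. SYT1, the main fast calcium sensor of the forebrain, was among the even genes. It was lowest in IT_A (2027 and 2048 CPM in animals 1 and 2) and highest in IT_D (4088 and 3739 CPM), a range of 1.92-fold between means. SYT14, an atypical synaptotagmin, spanned 1.92-fold, from L6CT (248 and 228 CPM) to Sst (463 and 452 CPM).

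VAMP2, the synaptobrevin of most forebrain synapses, was counted at 8.07 to 19.4 CPM in every neuronal sum, and no neuronal sum was above 3.66 CPM for SYN1 or 4.04 CPM for SYP. The study extended the annotated 3′ ends of genes before counting but not where a neighboring gene lay close, and names VAMP2 among those left as annotated. Whether that sets these counts was not tested. VAMP2 was at 14.8 and 15 CPM in Astro and at 23.1 and 23.6 CPM in OD, so its count did not separate neurons from glia.

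Each calcium sensor other than SYT1 had a pattern of its own. SYT2, the fast sensor of fast-spiking interneurons and hindbrain synapses, was at 227 and 254 CPM in Pvalb of animals 1 and 2. The next subclass was Sst with 49.9 and 41.9 CPM, a 4.56-fold and 6.07-fold gap, and all other sums were at 24.7 CPM or below. A UMI of SYT2 was seen in 59.6% and 60.4% of Pvalb nuclei (95% exact binomial intervals 56.7 to 62.4% and 57.2 to 63.4%), against 0.526% and 0.396% of OD nuclei. The intervals cover counting error only, and the median depth was 7195 and 6987 UMIs in Pvalb and 1924 and 1909 in OD. Within Pvalb the 6 types named by the authors differed: Pvalb_1 had 288 and 337 CPM, and Pvalb_4 had 76.4 and 92.9 CPM. Every Pvalb type lay above every other type in both animals.

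SYT6, a synaptotagmin best known from the acrosome reaction of sperm, was found in the deep-layer L6CT, L5NP and L6b, but not L5PT, and in OPC. L6CT had 166 and 132 CPM, OPC 106 and 93.9 CPM, L5NP 84.9 and 93.9 CPM, and L6b 54.5 and 51.6 CPM. All other sums were at 11 CPM or below, so these 4 subclasses did not overlap the rest. A UMI was present in 64.3% and 54.8% of L6CT nuclei, in 22.1% and 21.3% of OPC nuclei and in 0.439% and 0.340% of OD nuclei, whose depth was close to that of OPC (medians of 2551 and 2619 UMIs in OPC).

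SYT9, a fast calcium sensor related to SYT1 and SYT2, was highest in L5NP at 187 CPM in both animals. L6CT followed with 81.2 and 83.7 CPM, and among GABAergic subclasses Frem1 stood apart with 52.6 and 64.5 CPM while the other 4 stayed between 2.86 and 14.1 CPM. DOC2B, a high-affinity calcium sensor linked to spontaneous release, was at 38.3 and 33.5 CPM in L5PT. Astro followed with 19.4 and 22.3 CPM and OD with 10.0 and 18.1 CPM, and no other sum was above 3.71 CPM. A UMI of DOC2B was seen in 29.4% and 25.2% of L5PT nuclei and in 4.56% and 6.25% of the shallower Astro nuclei, but in 0.258% and 0.351% of OPC nuclei.

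OTOF encodes otoferlin, the calcium sensor of inner hair cells and a gene whose loss causes deafness. It was at 67.6 and 60.1 CPM in Sst, at 20.4 and 44.1 CPM in IT_A, at 25.1 and 79.0 CPM in OPC, and at 7.93 CPM or below in the remaining sums, except 20.6 CPM from a single UMI in Endo of animal 1. A UMI was present in 24.5% and 18.9% of Sst nuclei, in 11.1% and 22.8% of IT_A nuclei and in 6.33% and 19.2% of OPC nuclei, against 0.219% and 0.566% of OD nuclei. Within IT_A it was uneven: IT_A_3 had 57.4 and 75.5 CPM and IT_A_5 25.9 and 84.2 CPM, whereas IT_A_2 had 4.23 and 5.94 CPM. Within Sst, Sst_3 had 93.6 and 105.6 CPM and Sst_4 only 23.3 and 5.20 CPM.

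**Figure D2:**
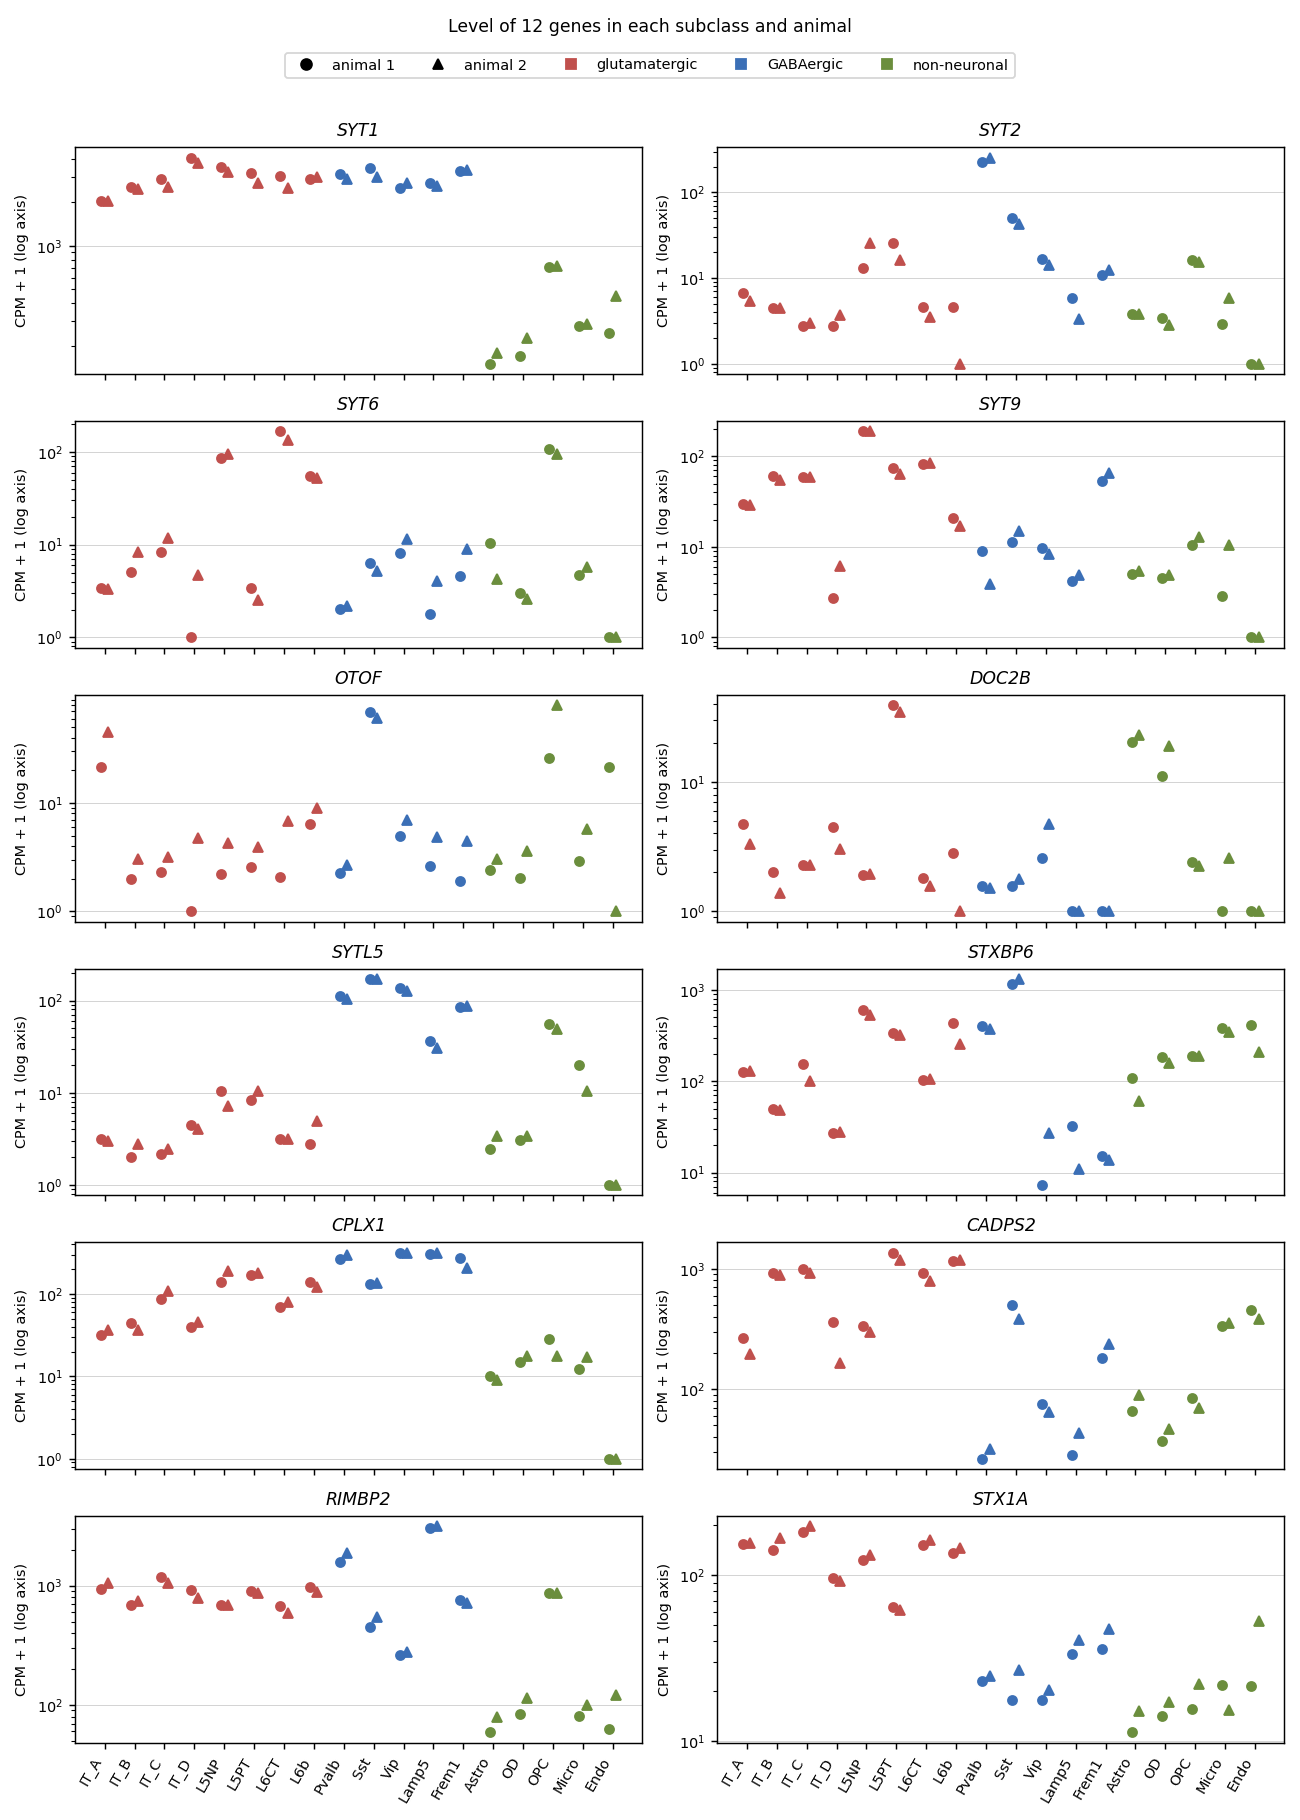
Level of 12 genes in each subclass (horizontal axis) and animal (circles animal 1, triangles animal 2), as CPM + 1 on a log axis, with 1 sum of nuclei behind each point. SYT1 is even across the 13 neuronal subclasses, SYT2 peaks in Pvalb, SYT6 in L6CT, L5NP, L6b and OPC, DOC2B in L5PT, and the animals lie close together except for OTOF in IT_A and OPC and for subclasses with few nuclei.

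The rule of at least 2-fold over the next subclass in both animals with at least 20 CPM was met by 8 genes: SYT2 and SYT9 (above), SV2C, RPH3AL, RAB32, RAB34, STXBP4 and VAMP8. SV2C, an SV2 vesicle protein, led in the Frem1 interneurons (32.1 and 42.6 CPM, next Lamp5 with 12.1 and 6.20 CPM), from 15 of 166 and 13 of 139 nuclei with a UMI (9.04% and 9.35%). RPH3AL, a RAB effector of exocytosis outside synapses, led in Endo (515 and 259 CPM). It was also at 27.1 and 18.7 CPM in L5PT and at 31.6 and 23.8 CPM in Vip, while the other glutamatergic sums stayed at 2.15 CPM or below. RAB32, a RAB of lysosome-related organelles, led in microglia (99.9 and 124 CPM) with no other sum above 2.57 CPM. STXBP4, a syntaxin-binding protein studied in insulin-driven trafficking, led in astrocytes (622 and 512 CPM, next by mean L5PT at 136 and 154 CPM). RAB34 led in astrocytes too (72.2 and 60.3 CPM), and VAMP8, a SNARE of endosomes and secretory granules, met the rule in Endo (20.6 and 34.6 CPM) on only 1 UMI in animal 1 and 2 UMIs in animal 2.

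STXBP6 (amisyn, a SNARE-binding inhibitor of fusion) spanned 92.2-fold between the neuronal means of Sst and Frem1. Sst had 1161 and 1322 CPM, L5NP 599.8 and 526 CPM, L6b 438 and 258 CPM, Pvalb 407 and 369 CPM, and L5PT 338 and 317 CPM. Vip (6.32 and 26.0 CPM), Lamp5 (31.5 and 10.1 CPM) and Frem1 (14.3 and 12.7 CPM) were at the low end. The GABAergic subclasses thus held both the highest and the lowest neuronal levels. CPLX3, the complexin of retinal ribbon synapses, had 102 UMIs in all labelled nuclei. L5NP had 8.07 and 8.49 CPM and no other sum was above 1.82 CPM. It was seen in 25 of 436 and 16 of 308 L5NP nuclei, 5.73% and 5.19%.

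The first comparison asked how release genes divide excitatory from inhibitory neurons. Of 72 genes that passed the low-count filter, 30 were higher and 16 lower in glutamatergic than in GABAergic neurons (edgeR quasi-likelihood test, adjusted p under 0.05), which is 41.7% and 22.2%. Of all 16156 genes tested, 22.0% were higher and 20.8% lower. With equal numbers of nuclei per sum 31 of 57 passed, 18 of them higher, against 38.2% of all genes in either direction. The contrast gives each subclass the same weight, so each value below is a difference between mean log levels of 8 and 5 subclasses. By role, 4 of 8 tested calcium sensors were higher and 2 lower, and 5 of 6 syntaxin-binding proteins were higher and none lower. STXBP6, among those 5, depended on how subclasses were weighted (below). Active zone scaffolds (5 of 7 higher, 1 lower), complexins (2 of 3, 1 lower) and other synaptotagmins (4 of 7, 2 lower) had more genes higher. RAB3 genes and regulators had 3 of 7 higher and 2 lower. Priming factors (1 of 3) and vesicle membrane proteins with synapsins (2 of 7) had as many higher as lower. SNAREs of other membranes had 2 of 12 higher and 3 lower, and 2 of 2 synaptotagmin-like genes were lower. None of the 6 tested RABs outside the RAB3 family passed.

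SYTL5, a synaptotagmin-like RAB27 effector, had the largest difference. Its mean level was 3.60 and 3.75 CPM in glutamatergic subclasses of animals 1 and 2 against 107 and 103 CPM in GABAergic subclasses (log2 fold change -4.88 ± 0.09 SE, edgeR adjusted p = 2.67e-20). The classes did not overlap: the highest glutamatergic sum was 9.57 CPM in L5NP and the lowest GABAergic sum 29.5 CPM in Lamp5. STX3, a syntaxin of ribbon synapses and of dendritic exocytosis, behaved likewise with 2.56 and 3.36 CPM against 23.3 and 24.0 CPM (-3.29 ± 0.16, adjusted p = 1.77e-13, edgeR). Its glutamatergic sums reached 6.13 CPM and its GABAergic sums started at 13.2 CPM.

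The complexins split by class. CPLX1 had 89.8 and 98.8 CPM in glutamatergic and 256 and 253 CPM in GABAergic subclasses (-1.53 ± 0.07, edgeR adjusted p = 5.99e-14), and the ranges overlapped because Sst (129 and 134 CPM) lay below L5NP (140.2 and 187 CPM) and L5PT (171 and 180 CPM). CPLX2 was higher in glutamatergic neurons with 106 and 87.8 CPM against 62.4 and 57.7 CPM (0.67 ± 0.06, edgeR adjusted p = 1.73e-08). Within the IT subclasses CPLX2 itself ranged from 40.5 and 38.4 CPM in IT_B to 204 and 139 CPM in IT_D.

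STX1A, a syntaxin of neuronal release, was higher in glutamatergic neurons. It had 131 and 139 CPM in glutamatergic against 24.5 and 30.9 CPM in GABAergic subclasses (2.39 ± 0.08, edgeR adjusted p = 4.34e-16), and its lowest glutamatergic value, 60.7 CPM in L5PT, lay above its highest GABAergic value, 46.1 CPM in Frem1. SNAP25, which the authors used for labelling, had 1325 and 1243 CPM against 646 and 634 CPM. SYT1 had 3036 and 2794 CPM against 3031 and 2912 CPM and did not pass (0.05 ± 0.04, edgeR adjusted p = 0.350), nor did VAMP2 (-0.14 ± 0.12, edgeR adjusted p = 0.363).

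CADPS2, a priming factor best known for peptide and neurotrophin release, was at 789 and 703 CPM in glutamatergic against 162 and 151 CPM in GABAergic subclasses (2.85 ± 0.10, edgeR adjusted p = 2.14e-15). Its paralog CADPS had 1746 and 1643 CPM against 1846 and 1869 CPM and did not pass (-0.02 ± 0.04, edgeR adjusted p = 0.732). ERC2, an ELKS scaffold, was higher in glutamatergic neurons with 1569 and 1878 CPM against 786 and 894 CPM (1.16 ± 0.08, edgeR adjusted p = 8.93e-11), as was RIMS1 with 2858 and 2846 CPM against 2358 and 2221 CPM (0.47 ± 0.04, edgeR adjusted p = 7.01e-09). RIMS3, a short RIM that lacks the RAB3-binding part, was lower (24.3 and 21.6 CPM against 35.5 and 32.4 CPM), but with counts summed per class its fold change was -0.0088 (edgeR adjusted p = 0.974). The tomosyns, which compete with synaptobrevin for syntaxin, were both higher: STXBP5 at 445 and 479 CPM against 229 and 257 CPM, and STXBP5L at 1211 and 1243 CPM against 639.9 and 693 CPM.

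SYT6 and SYT9 were higher in glutamatergic neurons (1.92 ± 0.21 and 2.11 ± 0.15, edgeR adjusted p = 1.34e-07 and 1.88e-10, though SYT6 did not pass with equal nuclei, at 1.48), and SYT2 (-2.23 ± 0.25, edgeR adjusted p = 1.53e-07), RAB3B and rabphilin (RPH3A, a RAB3 effector) were lower. Rabphilin had 207 and 214 CPM against 424 and 319 CPM. Among the vesicle proteins SV2A was lower (46.8 CPM in both animals against 73.7 and 69.4 CPM). SV2B, used by the authors to mark glutamatergic clusters, had 889 and 804 CPM against 111 and 121 CPM, and the GABAergic mean rests on Lamp5, which had 424 and 388 CPM while the other GABAergic sums were at 70.3 CPM or below.

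STXBP6 depended on how subclasses were weighted. With equal weights it was higher in glutamatergic neurons (1.01 ± 0.15, edgeR adjusted p = 9.32e-06), but its mean CPM was lower there (229 and 189 CPM against 324 and 348 CPM), and with counts summed per class the fold change was -1.59 (edgeR adjusted p = 1.14e-04).

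**Figure D3:**
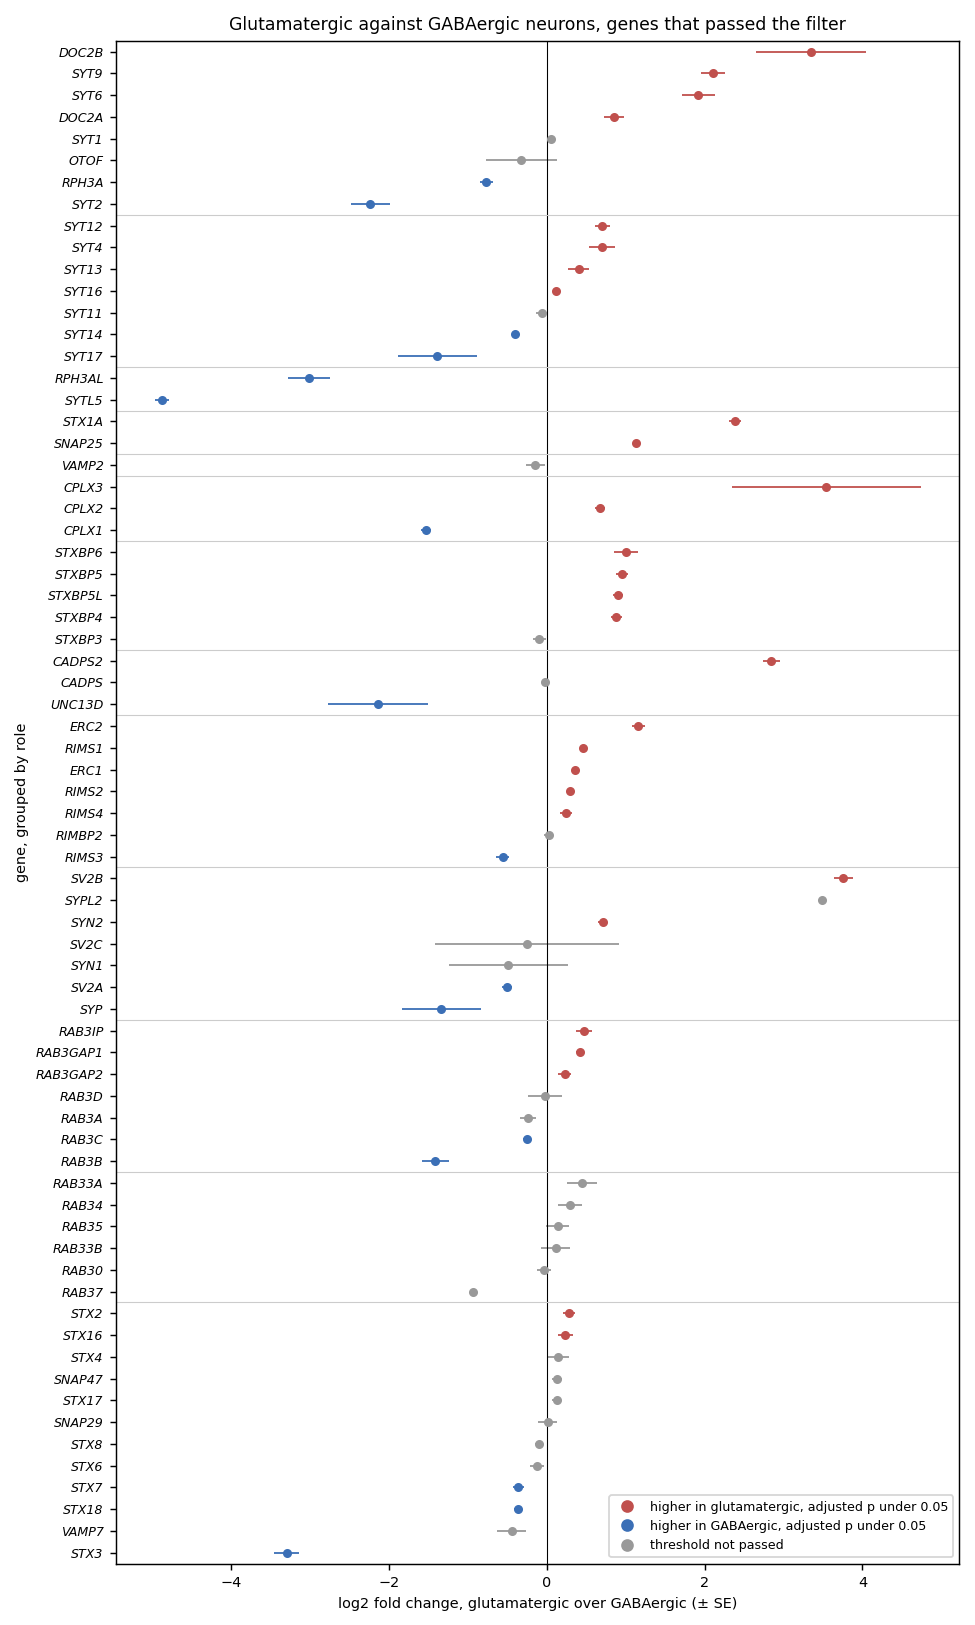
Log2 fold change of glutamatergic over GABAergic neurons (horizontal axis, bars are SE) for 70 of the 72 genes that passed the filter, grouped by role. Red points are higher and blue points lower in glutamatergic neurons at an adjusted p under 0.05 in edgeR, gray points did not pass. No bar is drawn for SYPL2 and RAB37, whose SE was above 3 and whose sums were mostly near 0.

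Other vesicle cycle genes outside the name rule (fusion ATPase and adaptors, endocytosis, liprins) served for comparison. Of 18 with a symbol, 17 were tested in neurons, and 6 were higher and 3 lower in glutamatergic neurons, beside the 22.0% and 20.8% of all genes. SH3GL2, endophilin of vesicle uncoating, was among those higher (1.96 ± 0.08, edgeR adjusted p = 5.25e-15), and DNM3, a dynamin, among those lower (-1.53 ± 0.07, edgeR adjusted p = 1.01e-13). NSF, the ATPase that takes SNARE complexes apart, did not pass (0.05 ± 0.04, edgeR adjusted p = 0.330).

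Pvalb interneurons, which fire fast and release transmitter with high precision, were set against the mean of the other 4 GABAergic subclasses. Of 72 genes 16 were higher and 13 lower in Pvalb (22.2% and 18.1%), against 14.7% and 9.77% of all genes tested. With equal numbers of nuclei per sum 17 of 57 passed, against 14.3% of all genes under that setting. By role, 1 of 8 tested calcium sensors was higher (SYT2) and 5 were lower (DOC2A, OTOF, RPH3A, SYT6 and SYT9). Of genes at 20 CPM or more, SYT2 had the largest difference with 227 and 254 CPM against 20.1 and 17.3 CPM (4.30 ± 0.19, edgeR adjusted p = 3.60e-13). STXBP6 followed at 3.03 ± 0.21 (edgeR adjusted p = 5.04e-10), although its level in Sst was higher than in Pvalb. SYT13, a synaptotagmin without calcium-binding residues, had 134 and 199 CPM against 57.3 and 72.8 CPM (1.54 ± 0.22, edgeR adjusted p = 1.38e-05).

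The scaffolds of the active zone moved both ways in Pvalb. RIMBP2 was higher at 1576 and 1886 CPM against 1132 and 1170 CPM (1.26 ± 0.09, edgeR adjusted p = 7.85e-10), although Lamp5 with 3063 and 3137 CPM lay far above Pvalb. RIMS4 was higher (69.0 and 89.6 CPM against 38.7 and 38.1 CPM). RIMS1 was lower, with 1560 and 1470 CPM against 2558 and 2409 CPM (-0.57 ± 0.08, edgeR adjusted p = 2.39e-05), and so were RIMS3 (17.0 and 12.8 CPM against 40.1 and 37.3 CPM) and ERC1, which did not pass with equal nuclei (edgeR adjusted p = 0.178) or without the low-count filter (0.107). In all, 3 of the 7 scaffolds were higher and 3 lower.

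The priming factors CADPS and CADPS2 took opposite directions in Pvalb. CADPS had 2282 and 2580 CPM against 1737 and 1692 CPM (0.60 ± 0.07, edgeR adjusted p = 1.42e-06). CADPS2 had 25.5 and 30.6 CPM against 197 and 181 CPM (-2.08 ± 0.21, edgeR adjusted p = 1.41e-07). The low CADPS2 was shared by Lamp5 (27.5 and 41.9 CPM), while Sst had 503.7 and 382 CPM.

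RAB3 genes also diverged. RAB3B was higher in Pvalb (50.7 and 50.3 CPM against 23.2 and 22.0 CPM, 1.53 ± 0.21, edgeR adjusted p = 1.08e-05), with Sst at a similar 46.2 and 52.1 CPM. RAB3C was lower (491 and 396 CPM against 999 and 902 CPM, -0.99 ± 0.10, edgeR adjusted p = 1.84e-07). The core genes SNAP25, STX1A, VAMP2, SYT1 and CPLX1 did not pass in this comparison, with edgeR adjusted p between 0.0739 (CPLX1, 0.31 ± 0.12) and 0.789 (VAMP2). CPLX1 passed with animal as a replicate block (edgeR adjusted p = 0.0118) and without the low-count filter (0.0182). CPLX2 was lower in Pvalb, but did not pass with equal nuclei (-0.78, edgeR adjusted p = 0.146).

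Among glutamatergic neurons, L5PT cells, which project out of the cortex to the brainstem, were set against the mean of the 4 IT subclasses. Here 12 genes were higher and 7 lower of 72 (16.7% and 9.72%), against 10.2% and 8.39% of all genes tested, so the share lower was close to the background. DOC2B had the largest difference among the abundant genes with 38.3 and 33.5 CPM against 2.38 and 1.51 CPM (4.49 ± 0.22, edgeR adjusted p = 1.96e-11). CPLX1 was at 171 and 180 CPM against 49.8 and 55.9 CPM (1.86 ± 0.12, edgeR adjusted p = 2.00e-10). STXBP6 had 338 and 317 CPM against 88.3 and 76 CPM, and CADPS2 had 1361 and 1178 CPM against 638 and 543 CPM.

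SYT17, an atypical synaptotagmin found at the Golgi and endosomes, was at 46.4 and 50.7 CPM in L5PT against 15.7 and 14.1 CPM in IT (2.85 ± 0.23, edgeR adjusted p = 8.81e-09). The IT mean hid a split, since IT_A had 53.6 and 42.2 CPM and IT_B, IT_C and IT_D 8.39 CPM or less. The lower genes in L5PT were STX1A (63.0 and 60.7 CPM against 143 and 152 CPM, -1.21 ± 0.13, edgeR adjusted p = 3.56e-07), RIMS1 (1676 and 1459 CPM against 3367 and 3412 CPM, -1.09 ± 0.09, edgeR adjusted p = 5.62e-09), rabphilin, RIMS3, SYN2 and a pair at low counts, STX3 and SYT6, whose L5PT and IT means were at 6.08 CPM or below. RIMS3 was at 15.5 and 12.4 CPM in L5PT, between IT_B (56.6 and 53.8 CPM) and IT_C (12.1 and 12.9 CPM) in animal 1, and its direction reversed with equal nuclei (0.24, edgeR adjusted p = 0.805). SYN2, a synapsin that clusters vesicles, had 594 and 476 CPM against 891 and 813 CPM. Both RAB3 GTPase-activating subunits were higher, RAB3GAP1 at 185 and 195 CPM against 136 and 139 CPM and RAB3GAP2 at 192 and 216 CPM against 128 and 169 CPM. Their log2 fold changes were 0.47 ± 0.09 and 0.44 ± 0.15. With equal nuclei neither passed, at similar sizes (0.44 and 0.41, edgeR adjusted p = 0.0724 and 0.123), and RAB3GAP2 also missed the threshold under the DESeq2 test (0.44, adjusted p = 0.0511) and with labels from other genes (0.42, 0.0554).

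L6CT cells, which project to the thalamus, gave 13 genes higher and 13 lower than IT of 72 (18.1% each), against 10.9% and 10.8% of all genes tested. With equal numbers of nuclei 14 of 57 passed, against 14.3% of all genes. SYT6 was at 166 and 132 CPM against 3.49 and 6.08 CPM (5.0 ± 0.17, edgeR adjusted p = 7.09e-15). STXBP5 was higher at 823 and 916 CPM against 303 and 355 CPM (1.35 ± 0.12, edgeR adjusted p = 9.47e-09), a level that among glutamatergic sums only L6b (803 and 744 CPM) approached. SYT9 had 81.2 and 83.7 CPM against 36.9 and 36.3 CPM. CPLX2 had 154 and 132 CPM against 107 and 86.7 CPM (0.74 ± 0.10, edgeR adjusted p = 6.30e-06).

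RAB3C was lower in L6CT, with 229 and 223 CPM against 952 and 899.8 CPM (-2.08 ± 0.11, edgeR adjusted p = 5.12e-12), and L5NP shared the low level (282 and 279 CPM). No other glutamatergic sum of RAB3C was below 391 CPM. The scaffolds RIMS1, RIMS2 and RIMBP2 were each lower in L6CT, with RIMS2 at 1540.2 and 1546 CPM against 2236 and 2163 CPM (-0.54 ± 0.07, edgeR adjusted p = 7.65e-06). None of the 7 scaffolds was higher. SNAP25, STX1A, SYT1 and VAMP2 did not pass (edgeR adjusted p of 0.359 to 0.935).

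IT_A and IT_C were the pair of IT subclasses compared with each other. Of 70 tested genes 10 were higher and 7 lower in IT_A (14.3% and 10.0%), against 5.87% and 4.98% of all 16720 genes tested. With animal as a replicate block 36 members passed, 18 of them higher, and 28.9% of all genes. With equal numbers of nuclei 7 of 47 passed, against 5.92% of all genes. OTOF had the largest difference, 20.4 and 44.1 CPM in IT_A against 1.29 and 2.17 CPM in IT_C (4.25 ± 0.54, edgeR adjusted p = 0.00101). SYT17 had 53.6 and 42.2 CPM against 6.89 and 8.39 CPM (2.67 ± 0.26, edgeR adjusted p = 2.92e-04). The tomosyn STXBP5L was at 1834 and 1895 CPM against 778 and 942 CPM (1.15 ± 0.14, edgeR adjusted p = 9.10e-04), and IT_D (1929 and 1673 CPM) was as high as IT_A.

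The complexins again split between IT_A and IT_C. CPLX2 was higher in IT_A, 122 and 112 CPM against 62.7 and 58.2 CPM (0.98 ± 0.14, edgeR adjusted p = 0.00213). CPLX1 was lower, 30.9 and 35.5 CPM against 86.6 and 109 CPM (-1.53 ± 0.19, edgeR adjusted p = 8.30e-04), but with equal nuclei it was at -0.88 and did not pass (edgeR adjusted p = 0.136). RIMS2 was higher in IT_A (2349 and 2404 CPM against 1616 and 1548 CPM), and RIMS1 did not pass (2418 and 2691 CPM against 3170 and 3204 CPM, -0.29 ± 0.13, edgeR adjusted p = 0.248).

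CADPS2 and RAB3B were lower in IT_A. CADPS2 was at 265 and 195 CPM against 1002 and 920.4 CPM (-2.04 ± 0.25, edgeR adjusted p = 8.70e-04), and IT_B (928 and 894 CPM) resembled IT_C in level. RAB3B was at 5.72 and 4.18 CPM against 20.3 and 24.1 CPM (-2.15 ± 0.27, edgeR adjusted p = 0.00103), with IT_B (6.40 and 6.67 CPM) near IT_A. SYT1 was at -0.39 ± 0.11 and did not pass (edgeR adjusted p = 0.0621). With animal as a replicate block SYT1, RIMS1 and STX1A passed (edgeR adjusted p = 0.00153, 0.0146 and 0.0216), and SYT1 also passed under the DESeq2 test (adjusted p = 0.0123). SNAP25, STX1A and VAMP2 did not pass either (edgeR adjusted p of 0.368 to 0.972).

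**Figure D4:**
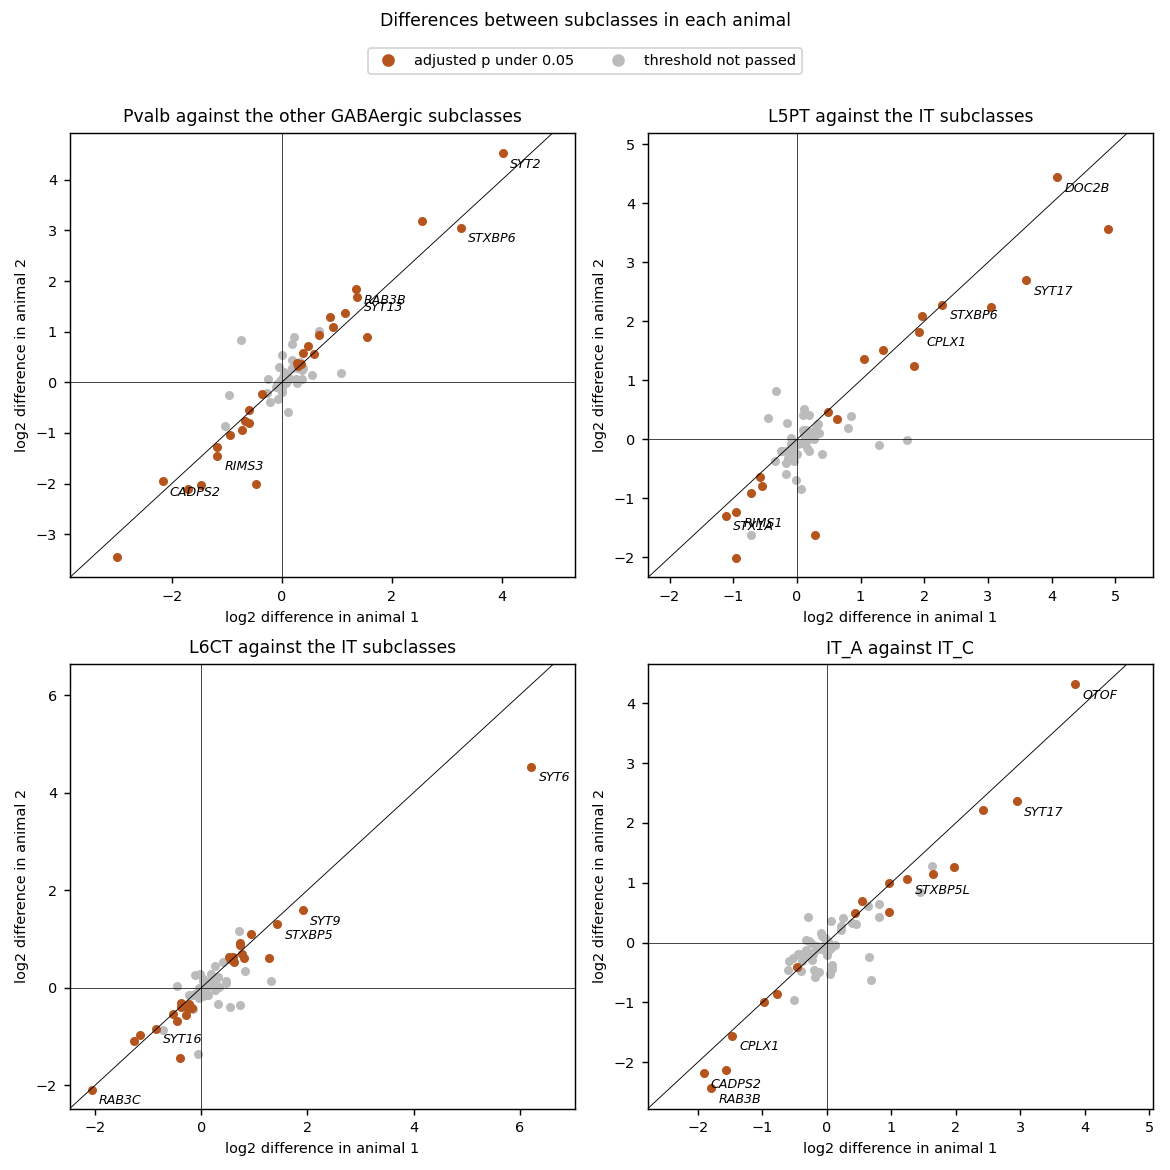
Log2 difference of each tested gene in animal 1 (horizontal axis) and animal 2 (vertical axis) for 4 comparisons between neuronal subclasses, with the diagonal as a line. Orange points passed an adjusted p of 0.05 in edgeR. SYT2 in Pvalb, DOC2B in L5PT, SYT6 in L6CT and OTOF in IT_A lie at the upper right in both animals.

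Neurons and non-neuronal cells were compared to see which release genes are shared with glia. Of 75 tested genes 40 were higher and 6 lower in neurons (53.3% and 8.0%), against 30.2% and 14.6% of all 17227 genes tested. The median log2 fold change was 1.65 over the tested members and 0.44 over all genes tested. All 7 tested active zone scaffolds were higher in neurons, as were 6 of 7 RAB3 genes and regulators and 5 of 7 other synaptotagmins. Of the 14 SNAREs of other membranes only 2 were higher and 4 lower. SYT1 had 3034 and 2839 CPM in neurons against 310.1 and 374 CPM in non-neuronal cells (3.52 ± 0.07, edgeR adjusted p = 4.09e-25), CPLX1 154 and 158 CPM against 12.4 and 11.5 CPM (5.05 ± 0.19, edgeR adjusted p = 3.76e-19) and rabphilin 291 and 255 CPM against 21.0 and 20.7 CPM. VAMP2 did not pass (1.57 ± 1.00, edgeR adjusted p = 0.331), and it passed as lower in neurons with counts summed per class (-0.36, edgeR adjusted p = 0.0253) and without L6b, IT_D and endothelial sums (-0.31, 0.0280). SNAP25, a labelling gene, had 1063 and 1009 CPM against 154 and 234 CPM.

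The 6 genes lower in neurons were STXBP3, STX4, STX8, STXBP6, STX11 and VAMP8, the last pair at 10.6 CPM or below in the class means. STXBP3 (a protein that serves STX4 in glucose transporter traffic) had 55.9 and 49.7 CPM in neurons and 216 and 174 CPM in non-neuronal cells (-1.74 ± 0.12, edgeR adjusted p = 6.02e-13). STX4 was lower as well (10.1 and 9.03 CPM against 20.5 and 32.4 CPM, -1.14 ± 0.19, edgeR adjusted p = 6.98e-06), and so was STX8, an endosomal SNARE (-0.29 ± 0.06, edgeR adjusted p = 3.03e-04, and -0.33 with 0.0529 with equal nuclei). STXBP6 was lower in neurons under equal weights of subclasses (-0.62 ± 0.14, edgeR adjusted p = 3.33e-04) but higher with counts summed per class (0.82, edgeR adjusted p = 1.39e-04).

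RNA set free from neurons can enter any droplet, so the level of neuronal genes in glia was set beside 4 genes that only neurons use (SLC17A6, GAD1, GAD2 and SLC32A1). In OPC these stood at 7.44% to 12.7% of their level over all nuclei in animal 1 and at 6.05% to 62.8% in animal 2, where the highest was SLC32A1, a gene at 4.95 CPM over all nuclei. In astrocytes the range was 2.98% to 23.0% and 7.87% to 24.5%, and in OD 7.67% to 27.5% and 11.5% to 47.6%. The authors used GAD1 and GAD2 to divide clusters into classes, so their levels in glia are not independent of the labels. Of 44 members at 20 CPM or more over all nuclei in both animals, 22 lay above the highest of the 4 genes in astrocytes of both animals, 20 in OPC and 15 in OD. Of all 6110 genes at that level 81.5%, 72.4% and 68.4% did so, and the difference from the members was not tested.

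SYT1 in astrocytes and OD stood at 6.25% to 10.2% of its level over all nuclei and SNAP25 and RIMS1 at 5.65% to 13.8%, none of them above the highest of the 4 neuronal genes. ERC2 in astrocytes had 1720 and 1643 CPM, which was 130% and 97.1% of its level over all nuclei, and CADPS had 1345 and 1223 CPM (90.4% and 84.0%), both above that range. OD had 134 and 174 CPM of ERC2 and 111 and 144 CPM of CADPS, at 7.44% to 10.3%. SYN2 also stood above in astrocytes, at 407 and 366 CPM.

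OPC, which receive synapses from neurons, carried more release genes than OD, the cells they mature into. Of 75 genes 32 were higher in OPC and 10 lower (42.7% and 13.3%), against 20.2% and 17.9% of all genes tested. With equal numbers of nuclei 14 of 54 passed, against 15.8% of all genes. Of the 7 scaffolds 6 were higher and none lower, and of these RIMS4 (1.86, edgeR adjusted p = 0.457) and RIMS3 (5.52, 0.134) did not pass with equal nuclei. CADPS had 1126 and 1179 CPM in OPC against 111 and 144 CPM in OD (3.01 ± 0.13, edgeR adjusted p = 4.05e-17), RIMBP2 860.4 and 869 CPM against 83.3 and 113 CPM (2.97 ± 0.17, edgeR adjusted p = 7.80e-15) and ERC2 1511 and 1464 CPM against 134 and 174 CPM (3.10 ± 0.20, edgeR adjusted p = 2.16e-13). These OPC levels stood at 75.7% to 114% of the level over all nuclei.

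Of the genes with few high neuronal subclasses, SYT6, SYTL5 and OTOF were higher in OPC than in OD, while DOC2B, SV2C and RPH3AL were at 1.42 CPM or below in OPC. SYT2, SYT9 and SYT17 were higher in OPC too (means of 14.7, 10.7 and 19.8 CPM against 2.14, 3.70 and 1.47 CPM). With equal nuclei SYT2 did not pass (5.21, edgeR adjusted p = 0.239). SYT6 had 106 and 93.9 CPM against 2.05 and 1.57 CPM in OD (5.58 ± 0.37, edgeR adjusted p = 3.74e-13), SYTL5 55.0 and 47.9 CPM against 2.05 and 2.36 CPM (4.38 ± 0.25, edgeR adjusted p = 2.00e-14) and OTOF 25.1 and 79.0 CPM against 1.02 and 2.62 CPM (4.69 ± 0.68, edgeR adjusted p = 1.38e-06). STX2, a syntaxin also known as epimorphin, was higher in OPC (231 and 207 CPM) than in any other sum, the next being astrocytes (111 and 114 CPM). Lower in OPC than in OD were STX17, the syntaxin of autophagosomes (39.8 and 52.3 CPM against 127 and 125 CPM, -1.64 ± 0.14, edgeR adjusted p = 9.18e-11), STXBP3 (134 and 117 CPM against 311 and 308 CPM, -1.47 ± 0.17, edgeR adjusted p = 2.90e-08) and SYT11 (99.6 and 106 CPM against 245 and 186 CPM, -1.25 ± 0.17, edgeR adjusted p = 4.91e-07). With equal nuclei SYTL5 (2.11, edgeR adjusted p = 0.378) and SYT11 (-1.23, 0.145) did not pass. STX1A and CPLX1 did not pass with all nuclei (edgeR adjusted p = 0.796 and 0.228). VAMP2 was lower in OPC (-0.62). That call was lost under the DESeq2 test (-0.45, adjusted p = 0.162). In edgeR it was lost with DESeq2 size factors (-0.46, 0.173), without the low-count filter (-0.66, 0.0927) and with labels from other genes (-0.44, 0.168).

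**Figure D5:**
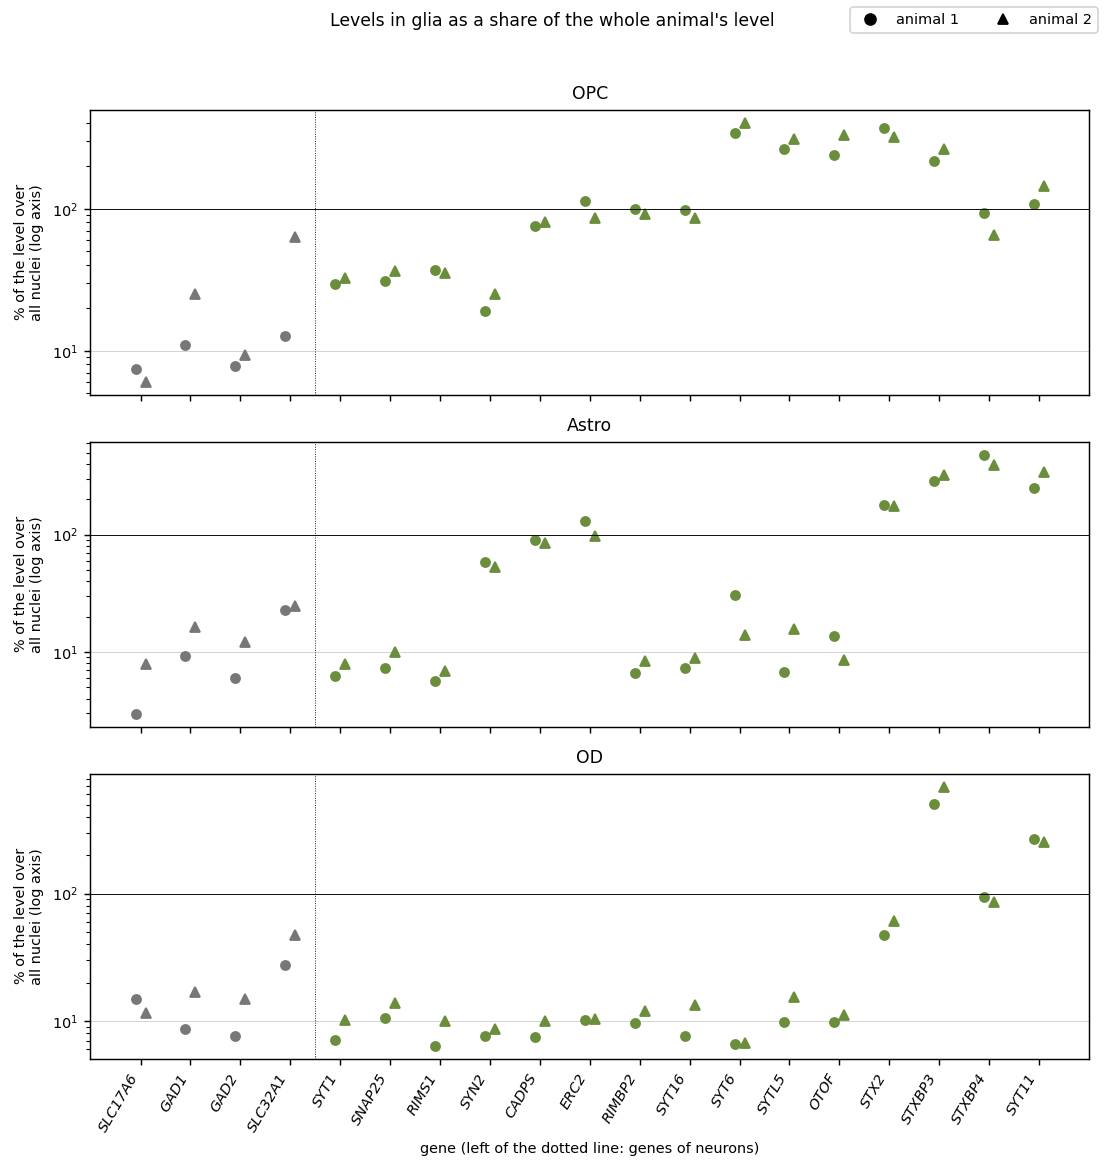
Level in OPC, astrocytes and OD as a percentage of the level over all labelled nuclei of the same animal (log axis), for 4 genes that only neurons use (left of the dotted line) and 15 release genes. Circles are animal 1 and triangles animal 2, and the solid line marks 100%. CADPS, ERC2, RIMBP2 and SYT16 lie near the line in OPC, CADPS and ERC2 in astrocytes, and none of these in OD.

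The 2 animals were compared by library and without a test, since there was 1 animal of each age. Of the 48 members at 20 CPM or more in the higher animal, the libraries of animal 1 and animal 2 did not overlap for 43 (89.6%), against 81.1% of all 6571 such genes. Of the 48, 1 differed by more than 1.5-fold, against 3.93% of all such genes. That gene was OTOF, at 11 and 9.96 CPM in libraries 1A and 1B and 23.1 and 24.2 CPM in 2A and 2B, a ratio of 2.26. It was higher in animal 2 in 6 of the 7 subclasses with at least 10 UMIs, and Sst, with 67.6 and 60.1 CPM, was the exception. The mix of IT_A types differed between the animals (IT_A_1 held 981 and 2465 nuclei and IT_A_2 held 1204 and 875), and OTOF was higher in animal 2 in each of the 5 IT_A types. Among genes higher in animal 2 the next ratio was that of ERC2 (1.28). The lowest ratios of the 48 were those of STXBP3 (0.724), SYTL5 (0.733) and SYT6 (0.748).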

How the data were processed

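Nuclei of V1 from 2 adult male opossums were profiled in 4 libraries. The authors ran Cell Ranger (6.1.1 in the submitters' notes, 7.1.0 in the matrix header) on ASM229v1, counted introns, and lengthened Ensembl gene models downstream. They deposited raw UMI counts of every gene in every nucleus. The deposited Scrublet score, a fraction from 0 to 1, was computed by the authors. Of the labelled nuclei 798 were doublet calls, which the main sums keep. Class, subclass and type labels were the authors'. Nuclei of clusters that the authors left out entered no comparison. SLC17A7 carries no symbol, so SLC17A6 stood in for it among the genes that only neurons use.

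Counts were summed per animal and subclass. Tests used edgeR 4.0.16 in R 4.3.3 (TMM, the low-count filter, quasi-likelihood, Benjamini-Hochberg over all genes of the fit, threshold 0.05) on neuronal sums (16156 genes), IT sums (16720) or all sums (17227). With 2 animals, p-values measure the spread between these 2. Fold changes average subclasses equally. The test was run on simulated data first. DESeq2 1.42.0 was an alternative. Sums and neighbors came from scikit-learn 1.9.0 and pandas 2.3.3, intervals from scipy 1.17.1 and plots from matplotlib 3.10.9, under Python 3.11.15. Shares of nuclei carry exact Clopper-Pearson intervals. Relabelling used 15 neighbors in 30 components of 3000 variable genes.

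Named genes in a comparison had an adjusted p under 0.05, the same direction in both animals and at least 20 CPM in the higher side of both, with up to 10 in each direction, beside core release genes whatever their value (some genes enter the fits and counts but are not reported here) and the subclass leaders described with the levels. Other names were chosen after their values were seen. The members and gene lists were chosen with earlier results of these data known. Sums of the same animal are paired by that animal, and their deviations from subclass means correlated at 0.00345 to 0.597 (median 0.116) over 153 pairs of subclasses and 17227 genes. The main tests did not model this pairing, and the alternative with animal as a block did. Alternatives covered size factors, the DESeq2 test, the filter, the animal as a block, doublets, labels from other genes, equal nuclei, sums per class, small subclasses left out and each animal left out.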

Additional observations from a re-analysis of the deposited data

How the results depend on the processing

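Of 62 values of the main comparisons under an alternative, 57 kept their call or moved by at most 1.5-fold in count. The 5 exceptions are counts of genes that passed. With equal numbers of nuclei per sum (29, 53 or 58 by fit) 17 genes passed for Pvalb, 14 for L6CT, 7 for IT_A against IT_C and 14 for OPC against OD (14.3%, 14.3%, 5.92% and 15.8% of all genes), where fewer genes were tested and the sums were smaller. With animal as a replicate block 36 passed for IT_A against IT_C, and the block moved no other count by more than 1.5-fold. Without an animal no spread is left, so no count of calls could be made.

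Of 1508 values of named genes, 1388 kept direction and call, 57 moved by more than the spread between animals when 1 animal was left out, 42 lost their call, 7 gained one (5 of them with the animal as a block) and 14 reversed. Of the 42, 31 were lost with equal nuclei, among them SYT6 between glutamatergic and GABAergic neurons (edgeR adjusted p = 1.00), ERC1 in Pvalb (0.178), RAB3GAP1 and RAB3GAP2 in L5PT (0.0724 and 0.123), CPLX1 between IT_A and IT_C (0.136), STX8 between neurons and non-neuronal cells (0.0529), and SYTL5 and SYT11 between OPC and OD (0.378 and 0.145). RIMS3 lost its call between glutamatergic and GABAergic neurons with counts summed per class (0.974), and RAB3GAP2 in L5PT lost its call under the DESeq2 test (0.0511) and labels from other genes (0.0554). With counts summed per class the reversed log2 fold changes were STXBP6 (-1.59) and SYT1 (-0.18) between glutamatergic and GABAergic neurons, and STXBP6 (0.82) and VAMP2 (-0.36) between neurons and non-neuronal cells. Without L6b, IT_D and endothelial sums they were SYT1 (-0.00288) and, against non-neuronal cells, VAMP2 (-0.31). With the DESeq2 test CPLX3 in Pvalb was -1.39. With doublets removed SYT2 (0.016) and VAMP2 (-0.00308) reversed in L6CT. With equal nuclei the values were VAMP2 -0.67 in Pvalb, RIMS3 0.24 in L5PT, STX1A -0.044 in L6CT, and CPLX1 -0.36 and STX4 0.21 in OPC against OD. The cause was not tested. Both reversed values of VAMP2 against non-neuronal cells passed as lower in neurons (edgeR adjusted p = 0.0253 and 0.0280), where the value with equal weights was 1.57 and did not pass.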

Other observations

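Nuclei in clusters that the authors left out carried the genes too. Among those left out as ambiguous GABAergic nuclei, 302 in animal 1 and 428 in animal 2, SYT1 was at 1233 and 1336 CPM and STX1A at 69.4 and 66.1 CPM. OTOF was at 7.71 CPM there in animal 1 and at 117 CPM in animal 2. Among nuclei left out as GABAergic doublets, 356 and 248, SYT2 was at 66.9 and 77.6 CPM and SYTL5 at 46.6 and 49.2 CPM. SV2C was at 95.5 and 49.2 CPM among the latter, and at 0 and 359.7 CPM among the ambiguous GABAergic nuclei.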
